A study of Homo sapiens with 9 samples.

Results

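The 7 FOS and JUN genes, FOS, FOSB, FOSL1, FOSL2, JUN, JUNB and JUND, encode the subunits of the transcription factor AP-1, and they were taken by gene name from a table of 45754 genes. RNA had been sequenced in 9 libraries of a human lung cancer cell line, 3 per group. One group had received RSGL at 10 µM and another BSGL at 10 µM, each a compound known here by its code name, and the control cells had received 0.1% DMSO, all over 24 h. Whether the compounds were given in DMSO is not stated in the labels, and the protocol speaks of a replicate being treated without naming separate cultures, so the spread between libraries may be technical in part. The labels give the line as H441 in each library, but a genotype tag names A549 for RSGL and H460 for BSGL and control. That tag divides the libraries exactly as RSGL does, so if it were right, a difference between lines and an effect of RSGL cannot be told apart in any comparison with RSGL below.

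AP-1 is a dimer of basic leucine zipper proteins. JUN proteins can pair with each other or with a FOS protein, whereas FOS proteins need a JUN partner to bind DNA, and the dimers recognise the site TGACTCA and, in some pairings, the related TGACGTCA. FOS, FOSB, JUN and JUNB are textbook immediate early genes, which mitogens and stress induce through MAP kinases with no need for new protein. FOSL1 and FOSL2, which lack the strong activation domain of FOS, tend to be made later and to last, and FOSL1 is known as the FOS protein that carcinomas with an active RAS pathway often hold at high levels.

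The libraries held 16720414 to 18738947 fragments in genes. Values are FPKM, fragments scaled by gene length and by the total of the library, so that levels can be compared between genes. A gene was tested if 3 or more libraries reached 1 FPKM, as 12775 did, and "called" means an adjusted p under 0.05 over all of those. Of 9 genes that mark the lung lineage of H441 0 reached that level of detection, and their summed level was 1.24 to 1.46 FPKM under RSGL, 1.13 to 1.24 under BSGL and 0.863 to 1.26 in control, so the label of the line was not borne out. Of 6 epithelial markers 5 passed, and the sum of the 6, nearly all from KRT7, KRT8 and KRT18, stood at 1278 to 1304 FPKM under RSGL, 1727 to 1781 under BSGL and 1716 to 1758 in control. EPCAM did not pass, at 0.528 ± 0.0774 FPKM under RSGL, 0.546 ± 0.171 under BSGL and 0.363 ± 0.114 in control. CDH1 averaged 5.19 ± 0.157, 7.77 ± 0.279 and 8.01 ± 0.311 FPKM in the same order. Of 7 fibroblast markers 3 passed, summing to 7.90 to 8.16 FPKM under RSGL, 10.3 to 11.1 under BSGL and 9.93 to 11.3 in control. Of 6 leukocyte markers only CD14 passed, the sum being 0.470 to 1.16 FPKM under RSGL, 1.50 to 2.34 under BSGL and 2.36 to 2.78 in control, with CD3D and CD3E at 0 in each library. The 5 endothelial markers, none of which passed, summed to 0.166 FPKM or less in each library. Of the 9 markers tested, 7 were called lower under RSGL than in control, where 27.6% of all genes tested were lower and 27.2% higher. KRT19 was higher, at 4.07 ± 0.583 FPKM under RSGL and 2.05 ± 0.200 in control, and the fibroblast marker LUM, at 4.38 ± 0.0729 and 4.65 ± 0.338, was not called. The part of these markers in the results below was not tested.

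Sequence before the start is shown first for the immediate early members, JUN, FOS, FOSB and JUNB. Its part in their response to RSGL was not tested. RefSeq promoters on GRCh38.p14, 250 bases before and 50 after the start, were found for 6 of the 7 members, the exception being FOSL1. They were searched on both strands for TGACTCA, TGACGTCA, TGACATCA and the shorter TGACGT, which TGACGTCA contains. The stretches below end at the first start that the deposited table, RefSeq or GENCODE gives, and capitals mark matches.
JUN (chr1:58784114-58784297, reverse strand): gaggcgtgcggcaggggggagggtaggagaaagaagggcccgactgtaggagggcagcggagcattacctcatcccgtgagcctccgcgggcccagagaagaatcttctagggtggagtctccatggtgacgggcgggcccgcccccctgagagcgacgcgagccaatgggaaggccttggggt
FOS (chr14:75278578-75278773, forward strand): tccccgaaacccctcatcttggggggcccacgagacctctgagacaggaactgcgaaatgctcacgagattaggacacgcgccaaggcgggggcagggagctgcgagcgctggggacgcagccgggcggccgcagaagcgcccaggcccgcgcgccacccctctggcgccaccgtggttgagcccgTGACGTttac
FOSB (chr19:45467746-45467994, forward strand): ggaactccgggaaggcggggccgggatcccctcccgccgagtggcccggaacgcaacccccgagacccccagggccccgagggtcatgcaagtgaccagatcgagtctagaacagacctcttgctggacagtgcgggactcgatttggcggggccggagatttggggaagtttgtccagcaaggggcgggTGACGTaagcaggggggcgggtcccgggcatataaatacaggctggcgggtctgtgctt
JUNB (chr19:12791236-12791485, forward strand): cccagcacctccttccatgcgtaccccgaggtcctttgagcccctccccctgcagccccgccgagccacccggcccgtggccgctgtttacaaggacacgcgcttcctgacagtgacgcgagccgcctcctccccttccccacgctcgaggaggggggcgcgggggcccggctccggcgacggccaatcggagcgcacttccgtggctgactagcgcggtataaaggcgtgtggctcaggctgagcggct
FOS has TGACGT from base -64 and FOSB from base -60, counted from the RefSeq start. JUN and JUNB show no match to the letters searched in these stretches, and other forms of the site were not searched.

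Closer to the start, the search met the sites below in JUN and FOSL2, again in capitals. The letters differ between these genes, and the part of any site in the response to RSGL was not tested.
JUN (chr1:58784096-58784125, reverse strand): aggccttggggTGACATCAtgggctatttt
FOSL2 (chr2:28392781-28392808, forward strand): gagtctggggtTGACGTgagtgaatcca
FOSL2 (chr2:28392851-28392879, forward strand): tgccattgtagTGACTCAtctcgggcaga
The site in JUN, TGACATCA from base -67, is the letter sequence long known as the JUN and ATF2 element of that gene. FOSL2 has TGACGT from base -66 and TGACTCA from base 5. JUND holds TGACGTCA from base -200 and the reverse of TGACGT from base -87, as shown here.
JUND (chr19:18281657-18281872, reverse strand): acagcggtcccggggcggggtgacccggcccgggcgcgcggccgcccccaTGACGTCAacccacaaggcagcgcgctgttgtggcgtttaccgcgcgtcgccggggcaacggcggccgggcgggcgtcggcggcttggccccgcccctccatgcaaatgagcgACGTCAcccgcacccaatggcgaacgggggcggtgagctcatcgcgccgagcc
Among 35116 promoters of the same length TGACTCA was present in 4.95%, TGACGTCA in 1.85%, TGACATCA in 2.61% and TGACGT in 7.98%. Matches of letters do not show binding, and no binding was measured.

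In the control cells the members spanned a wide range of levels. FOSL2 was highest at 72.6 ± 1.82 FPKM (SD, n = 3), and FOSL1 followed at 42.2 ± 1.38. JUNB stood at 22.3 ± 0.864 FPKM, above JUN at 18.5 ± 0.406. JUND, at 17.0 ± 1.25 FPKM, overlapped with JUN between libraries. FOS, at 0.976 ± 0.128 FPKM, and FOSB, at 0.426 ± 0.0922 FPKM, lay far below, at 35 to 46 and 26 to 38 fragments per library. FOSL2 and FOSL1 thus made up nearly the whole summed RNA of the FOS family in control cells. Under BSGL the order was the same, FOSL2, FOSL1, JUNB, JUN, JUND, FOS, FOSB, with JUNB and JUN overlapping. Under RSGL it was FOSL1, JUN, FOSL2, JUND, JUNB, FOS and FOSB, and each neighbour in that order lay apart from the next in all 3 libraries.

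**Figure D1:**
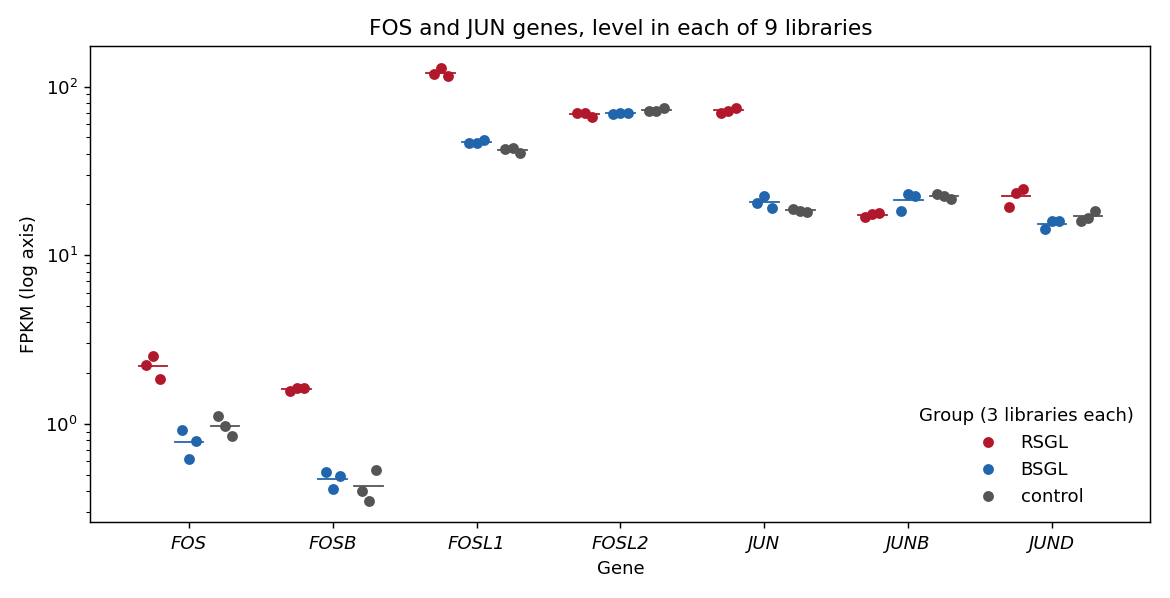
Level of the 7 genes in FPKM, on a log axis, in each RSGL, BSGL and control library (points) with the group mean (bar), 3 libraries per group. FOSL1 and JUN lie higher in the 3 RSGL libraries than in the other 6, and FOSL2 stays near 70 FPKM in all 9.

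JUN, the strongest activator among the JUN proteins, rose under RSGL. It stood at 70.2, 71.6 and 75.0 FPKM in the RSGL libraries, against 18.9, 18.4 and 18.1 FPKM in control libraries. The groups lay far apart with little spread in either, 3550 fragments in all backing the control level. The ratio of means was 3.92, and the difference was 1.91 on the log2(FPKM + 1) scale (SE 0.0539, 95% interval 1.79 to 2.03, adjusted p = 4.21e-09, limma).

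FOSL1, a FOS protein that pairs with JUN, also rose. It stood at 119, 129.6 and 115 FPKM under RSGL and at 42.8, 43.1 and 40.6 FPKM in control. The RSGL libraries varied more than those of control but lay wholly above them. The ratio of means was 2.87 and the log2 difference 1.50 (SE 0.0463, 95% interval 1.40 to 1.60, limma adjusted p = 7.19e-09). CCDC85B lies beside FOSL1 on the opposite strand, at 65890404 to 65891635, and the listed spans do not overlap. CCDC85B averaged 101.6 ± 4.41 FPKM under RSGL and 72.4 ± 1.54 in control. The part of its reads in the FOSL1 value was not tested.

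JUND, which most cells make steadily and which is known to restrain growth in some settings, rose by less. It stood at 19.4, 23.4 and 24.7 FPKM under RSGL and at 16.0, 16.6 and 18.4 FPKM in control. The lowest RSGL library was close to the highest of control, and the ratio of means was 1.32. The log2 difference was 0.38 (SE 0.0891, 95% interval 0.18 to 0.58, limma adjusted p = 0.00539).

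JUNB, a weaker activator that can oppose JUN at some promoters, fell. It stood at 16.8, 17.7 and 17.8 FPKM under RSGL and at 23.2, 22.3 and 21.5 FPKM in control. The groups did not overlap, and the spread within each was small beside the gap. The log2 difference was -0.34 (SE 0.0746, 95% interval -0.51 to -0.17, limma adjusted p = 0.00339), a ratio of means of 0.781.

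FOS and FOSB, the classical immediate early FOS genes, were higher under RSGL but remained low. FOS stood at 2.22, 2.51 and 1.85 FPKM, or 95, 97 and 73 fragments, under RSGL and at 1.11, 0.968 and 0.853 FPKM, or 46, 41 and 35 fragments, in control. FOSB stood at 1.56, 1.63 and 1.62 FPKM, or 117, 110 and 112 fragments, under RSGL and at 0.399, 0.351 and 0.529 FPKM, or 29, 26 and 38 fragments, in control. The RSGL libraries lay above control in both genes.

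Ratios of means were 2.25 for FOS and 3.77 for FOSB. The log2 difference was 0.69 for FOS (SE 0.101, limma adjusted p = 0.000257) and 0.87 for FOSB (SE 0.0827, limma adjusted p = 1.35e-05). At such levels the added 1 FPKM shrinks the difference, which became 1.09 for FOS and 1.71 for FOSB with 0.1 FPKM added, where FOSL1 was at 1.52. Both genes passed the detection limit only through the RSGL libraries, so that a difference was likely among the genes kept. Without any such limit the adjusted p was 0.00115 for FOS and 3.09e-05 for FOSB. In the deposited table the span of ERCC1, a DNA repair gene on the opposite strand, contains FOSB, and whether counting used strand is not stated in the labels. ERCC1 stood at 19.4 ± 0.620 FPKM under RSGL and 14.3 ± 0.504 in control, and in GENCODE release 29, which may not be the authors' annotation, 0 of 5553 exon bases of FOSB lie in an ERCC1 exon. The part of ERCC1 reads in the FOSB value was not tested.

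FOSL2, at 70.0, 69.6 and 65.8 FPKM under RSGL and 71.3, 71.8 and 74.7 FPKM in control, was not called. The RSGL libraries lay below those of control by a narrow gap. The log2 difference was -0.083 (SE 0.0336, 95% interval -0.16 to -0.0078, limma adjusted p = 0.0602), so a fall beyond 0.16 or a rise was outside the interval. FLJ31356, which overlaps it on the opposite strand, did not exceed 0.179 FPKM. FOSL2 was called with values scaled to a common sum (-0.12, adjusted p = 0.0373) and by limma-voom on recovered fragments (-0.087, adjusted p = 0.0159).

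In all, 5 members rose and 1 fell under RSGL. Of all genes tested 27.2% rose and 27.6% fell, 54.8% in either direction, so a call by itself was common in this comparison. The RSGL and control libraries did not overlap in any of the 7, 5 lying higher and 2 lower, beside 61.2% of all genes tested, 30.4% higher and 30.8% lower. A call with a log2 difference of at least 1 was found in 3.21% of genes tested, and JUN and FOSL1 were of that kind, though with 0.1 FPKM added FOS and FOSB also passed 1. Leaving aside FOS and FOSB for the reason above, 3 of the other 5 rose, 1 fell and 1 was not called.

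BSGL at the same dose and time left the members near their control levels. JUN stood at 20.4, 22.3 and 19.0 FPKM under BSGL and at 18.9, 18.4 and 18.1 FPKM in control. FOSL1 stood at 46.6, 46.3 and 48.4 FPKM under BSGL and at 42.8, 43.1 and 40.6 FPKM in control. In both genes the BSGL libraries lay above the control libraries by a narrow gap. The log2 difference was 0.15 for JUN (SE 0.0539, 95% interval 0.025 to 0.27, limma adjusted p = 0.634) and 0.16 for FOSL1 (SE 0.0463, 95% interval 0.053 to 0.26, limma adjusted p = 0.479), so neither was called.

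Of the other members FOS lay furthest from control, at a log2 difference of -0.15 (limma adjusted p = 0.867). JUND averaged 15.4 ± 0.984 FPKM under BSGL and 17.0 ± 1.25 in control, with a 95% interval of the log2 difference of -0.34 to 0.066. JUNB averaged 21.3 ± 2.56 FPKM under BSGL and 22.3 ± 0.864 in control, and its wide spread came from BSGL replicate 1, at 18.3 FPKM beside 23.0 and 22.4. FOSL2 averaged 69.6 ± 0.840 FPKM under BSGL and 72.6 ± 1.82 in control. FOS averaged 0.779 ± 0.152 FPKM under BSGL and 0.976 ± 0.128 in control, and FOSB 0.474 ± 0.0541 and 0.426 ± 0.0922, at 25 to 40 fragments in each BSGL library. The 95% interval of the log2 difference was -0.38 to 0.073 for FOS and -0.14 to 0.23 for FOSB. Under BSGL limma called 0 of the 7 members, as did limma-voom, beside 0.0861% of all genes tested, 0.047% higher and 0.0391% lower. At an unadjusted p under 0.05 there were 2 members, JUN and FOSL1, against 6.71% of genes tested, and in 4 members the libraries of BSGL and control did not overlap, 2 lying higher and 2 lower, against 12.8% of genes tested, 7.16% higher and 5.63% lower.

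**Figure D2:**
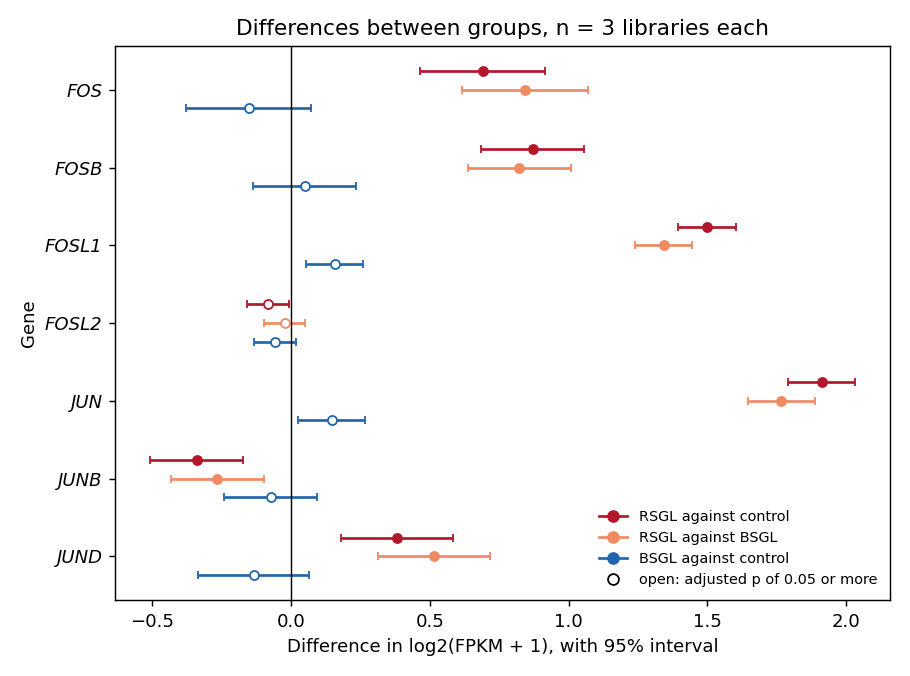
Differences in log2(FPKM + 1) with 95% intervals for the 7 genes in the comparisons RSGL against control, RSGL against BSGL and BSGL against control, each with 3 libraries per group. JUN reaches 1.91 and FOSL1 1.50 for RSGL against control, JUNB lies below 0, and the open points, those not called, include all 7 of BSGL against control.

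Set directly against BSGL, the RSGL libraries had 5 members higher and 1 lower, beside 54% of all genes tested, 26.5% higher and 27.5% lower. All but FOSL2 did not overlap between these groups, beside 61.2% of genes tested, 29.8% higher and 31.4% lower. JUN and FOSL1 were again called with a log2 difference of at least 1, as were 2.83% of genes tested. This comparison and that with control share the RSGL libraries, so their calls are not independent. JUN averaged 72.2 ± 2.50 FPKM under RSGL and 20.6 ± 1.68 under BSGL, a log2 difference of 1.77 (SE 0.0539, limma adjusted p = 8.39e-09). FOSL1 averaged 121 ± 7.57 FPKM under RSGL and 47.1 ± 1.16 under BSGL, a log2 difference of 1.34 (SE 0.0463, limma adjusted p = 1.70e-08). FOSB was higher by 0.82 (SE 0.0827), FOS by 0.84 (SE 0.101) and JUND by 0.52 (SE 0.0891), with limma adjusted p from 2.22e-05 to 0.000987. FOS and FOSB had passed the detection limit only through RSGL here too, and with no limit their adjusted p was 0.000402 and 4.77e-05. Of the other 5 members 3 were higher, 1 was lower and 1 was not called.

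For JUNB, 17.4 ± 0.561 FPKM under RSGL and 21.3 ± 2.56 under BSGL, the difference was -0.27 (SE 0.0746, limma adjusted p = 0.0128). This call was lost without BSGL replicate 2 (-0.21, adjusted p = 0.0509) or BSGL replicate 3 (-0.23, adjusted p = 0.0503). FOSL2 differed by -0.024 (95% interval -0.099 to 0.052, limma adjusted p = 0.583), so a difference beyond about 0.1 was outside the interval. That interval rests on the spread between libraries, 3 per group, which may be technical in part.

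The make-up of both families moved with RSGL. The summed level of the 3 JUN genes was 106, 113 and 118 FPKM under RSGL, 53.0, 61.3 and 57.3 under BSGL, and 58.0, 57.4 and 57.9 in control. JUN itself made up 64.4% ± 1.35 of that sum under RSGL, 36.0% ± 2.76 under BSGL and 31.9% ± 0.676 in control (SD, n = 3). JUNB made up 15.5% ± 0.337 under RSGL, 37.1% ± 2.30 under BSGL and 38.6% ± 1.47 in control.

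These shares are of RNA and say nothing of the amount of protein. JUND made up 20.0% ± 1.56 under RSGL, 26.9% ± 0.923 under BSGL and 29.4% ± 2.15 in control, so its share was lower under RSGL although its level was higher. The ratio of JUN to JUNB was 4.18, 4.05 and 4.21 in the RSGL libraries, 1.12, 0.968 and 0.846 in the BSGL libraries and 0.814, 0.825 and 0.842 in control. JUN was thus above JUNB in 3 of 3 RSGL libraries and below it in 3 of 3 control libraries.

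The summed level of the 4 FOS genes was 192, 203 and 184 FPKM under RSGL, 117, 118 and 119.8 under BSGL and 116, 116 and 117 in control. FOSL1 made up 62.6% ± 1.06 of it under RSGL, 39.9% ± 0.511 under BSGL and 36.3% ± 1.31 in control. FOSL2 made up 35.4% ± 1.10 under RSGL, 59.0% ± 0.622 under BSGL and 62.5% ± 1.33 in control. FOS held 1.13% ± 0.117 under RSGL, 0.661% ± 0.132 under BSGL and 0.841% ± 0.114 in control. FOSB held 0.832% ± 0.0431, 0.402% ± 0.0462 and 0.367% ± 0.0782 in the same order. The ratio of FOSL1 to FOSL2 was 1.69, 1.86 and 1.75 in the RSGL libraries, 0.678, 0.660 and 0.692 in the BSGL libraries and 0.600, 0.601 and 0.544 in control, so which of these genes led differed between RSGL and the other groups. No test was made of the shares, which are sums over chosen genes. In bulk RNA a change in the cells present and a change in RNA per cell cannot be told apart.

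**Figure D3:**
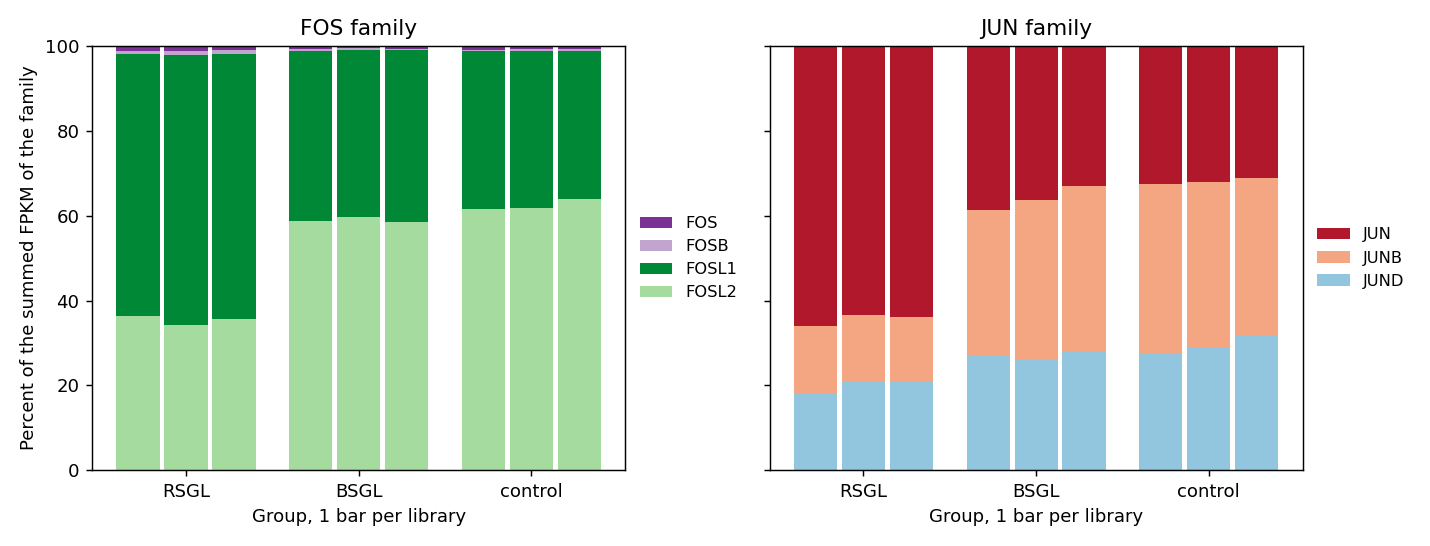
Share of each gene in the summed FPKM of the 4 FOS genes (left) and the 3 JUN genes (right), 1 bar per library, for RSGL, BSGL and control. FOSL1 and JUN hold more than 60% of their families in the 3 RSGL libraries and less than 41% in the other 6.

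Other basic leucine zipper proteins can take the place of a FOS or JUN partner. This list and those that follow were chosen with earlier results of these data known. Of 12 such genes 9 were tested, and 7 rose and 0 fell under RSGL against control, beside 27.2% and 27.6% of all genes. Their median log2 difference was 0.57, where that of all genes was -0.00085. MAFF, a small MAF protein, averaged 8.75 ± 0.730 FPKM under RSGL and 2.54 ± 0.225 in control (log2 difference 1.46, SE 0.0986, limma adjusted p = 1.23e-06). ATF3, a stress-induced partner of JUN, averaged 7.67 ± 0.523 FPKM under RSGL, 3.20 ± 0.525 under BSGL and 3.50 ± 0.306 in control, higher by 1.05 than under BSGL (SE 0.0926, limma adjusted p = 8.61e-06). BATF2, BATF3, MAFG, MAFK and JDP2 also rose, by 0.20 to 0.67, JDP2 having passed the detection limit only through the RSGL libraries. ATF2, at 5.10 ± 0.351 FPKM under RSGL and 4.75 ± 0.257 in control, and ATF7, at 3.39 ± 0.184 and 3.25 ± 0.0872, were not called. Under BSGL 0 of the 9 were called, with limma-voom also at 0, and against BSGL 7 were higher and 0 lower under RSGL.

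Kinases and factors that act on FOS and JUN genes, among them MAP kinases, SRF and ELK factors, were called in both directions. Of 20 such genes 18 were tested, of which 4 rose, 3 fell and 11 were not called under RSGL against control (median 0.058), where 54.8% of all genes were called. RPS6KA2, which was not tested, averaged 0.406 ± 0.117 FPKM under RSGL and 0.0316 ± 0.00835 in control. ELK3, an ETS factor that joins SRF at the FOS promoter, rose to 20.9 ± 0.841 FPKM under RSGL, against 12.9 ± 0.927 in control (log2 difference 0.66, SE 0.0617, limma adjusted p = 1.24e-05), and was named after its values were seen. MAP2K1, MAP2K2 and ELK1 rose by 0.21 to 0.23, while RPS6KA3 fell by 0.18 and RPS6KA4 by 0.13. MAP2K4, at 15.5 ± 1.10 FPKM under RSGL and 16.6 ± 0.482 in control, MAPK3, at 16.9 ± 1.46 and 15.0 ± 1.21, MAPK9, at 13.1 ± 0.742 and 11.9 ± 0.177, and MAP2K7, at 10.2 ± 0.152 and 10.5 ± 0.435, were not called. Under BSGL 0 of the 18 were called, with limma-voom also at 0, and against BSGL 5 were higher and 3 lower under RSGL. Kinase activity was not measured.

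Turnover genes of these factors moved in part. Of 6 ubiquitin ligases that act on JUN proteins 5 rose and 0 fell under RSGL against control (median 0.22), beside 27.2% and 27.6% of all genes. SMURF2 averaged 14.9 ± 0.498 FPKM under RSGL and 7.70 ± 0.156 in control (log2 difference 0.87, SE 0.0409, limma adjusted p = 1.04e-07), and SMURF1, ITCH, COP1 and FBXW7 rose by 0.18 to 0.29. The count was 2 without control replicate 1, 3 without RSGL replicate 1 and 2 at a common sum, and against BSGL 2 were higher and 0 lower. DET1, at 2.56 ± 0.187 FPKM under RSGL and 2.60 ± 0.316 in control, was not called.

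Of 8 proteins that bind AU-rich elements, the sequences that mark FOS and other short-lived messages, 1 rose and 6 fell under RSGL against control (median -0.26), beside 27.2% and 27.6% of all genes. ZFP36, which rose, averaged 34.0 ± 0.471 FPKM under RSGL and 18.5 ± 2.55 in control (log2 difference 0.85, SE 0.0859, limma adjusted p = 2.93e-05). ELAVL1, HNRNPD, KHSRP, TIA1, ZFP36L1 and ZFP36L2 fell by 0.18 to 0.41, and TIAL1, at 16.1 ± 0.190 FPKM under RSGL and 16.2 ± 0.581 in control, was not called. Against BSGL 1 was higher and 6 lower, and under BSGL 0 of the 8 AU-rich element genes and 0 of the 6 ligases were called, limma-voom also giving 0 and 0.

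Genes with known AP-1 sites were the list with the largest median. Like the other lists, this list was chosen with earlier results of these data known, so its counts and median only describe it. Of 29 such genes 22 were tested, and 18 rose, 3 fell and 1 was not called under RSGL against control, with a median log2 difference of 0.93. The 7 not tested, MMP1, MMP3, MMP9, MMP10, MMP13, IVL and SPRR1B, were low or absent in all groups. MMP1 averaged 1.04 ± 0.0498 FPKM under RSGL and 0.101 ± 0.0428 in control, and MMP9 0.220 ± 0.0528 and 0.378 ± 0.0633. The rest did not exceed 0.265 FPKM in any library. Of all genes 27.2% rose and 27.6% fell. HMOX1, heme oxygenase, averaged 377 ± 7.37 FPKM under RSGL and 62.4 ± 1.63 in control (log2 difference 2.58, SE 0.0338). VEGFA, the angiogenic growth factor, averaged 63.4 ± 0.633 FPKM under RSGL and 15.6 ± 0.788 in control (1.96, SE 0.0414). DUSP1, a phosphatase of MAP kinases, averaged 219.6 ± 2.23 FPKM under RSGL and 70.5 ± 1.94 in control (1.62, SE 0.0331).

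HBEGF, an EGF receptor ligand, averaged 9.61 ± 0.795 FPKM under RSGL and 3.62 ± 0.441 in control (1.20, SE 0.0770). Limma adjusted p for these 4 genes ran from 8.87e-11 to 8.39e-07. Many other factors act on each of them, and no binding of AP-1 was measured. The genes that fell, CCL2, a chemokine, at 4.02 ± 0.530 FPKM under RSGL and 9.76 ± 0.575 in control, EZR, the membrane linker ezrin, at 92.3 ± 6.00 and 113.7 ± 1.79, and CXCL8, another chemokine, at 14.0 ± 0.389 and 15.9 ± 0.691, were named after their values were seen. TGFB1, at 57.0 ± 2.92 FPKM under RSGL and 58.7 ± 3.45 in control, was not called, and MT2A and FTH1 have near-identical copies, so their counts are uncertain.

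Under BSGL 1 of the 22 was called, IL11, a cytokine, at 79.1 ± 1.44 FPKM under BSGL and 64.9 ± 1.72 in control (log2 difference 0.28, SE 0.0358, limma adjusted p = 0.0286). That call was lost without any 1 of the 6 libraries compared. The median of the list was 0.062, beside 0.0054 for all genes. Against BSGL 18 of the 22 were higher and 2 lower under RSGL.

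**Figure D4:**
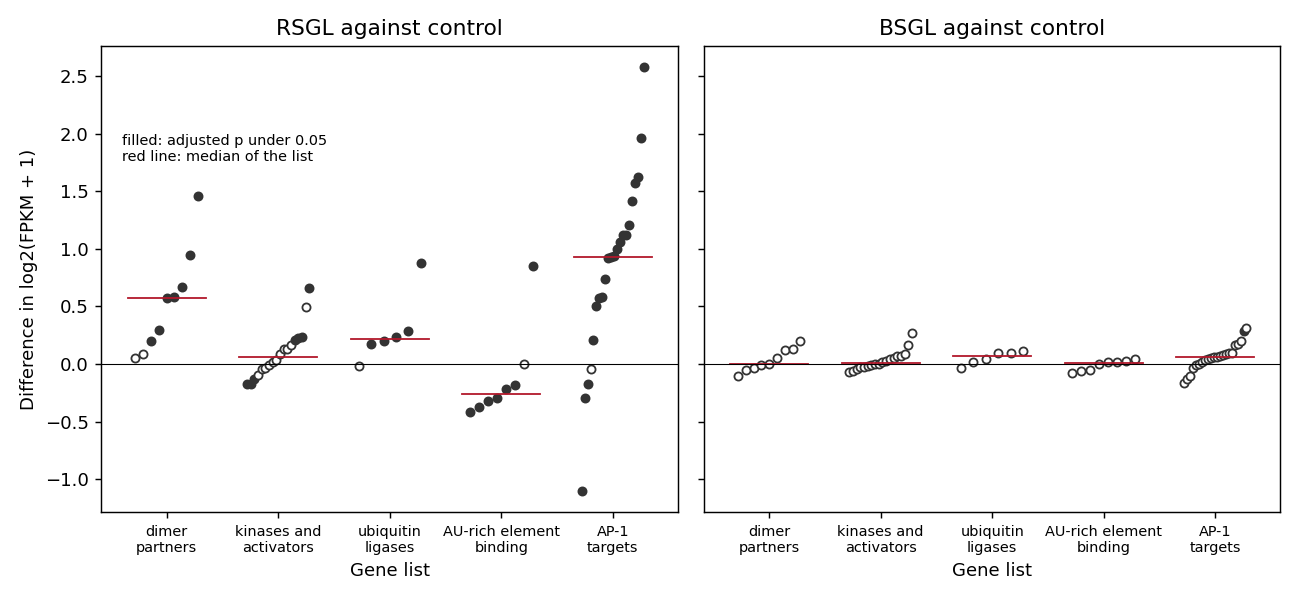
Differences in log2(FPKM + 1) for the tested genes of 5 lists, RSGL against control (left) and BSGL against control (right), 3 libraries per group, filled where called and with the list's median as a red line. Under RSGL the AP-1 targets have a median of 0.93 and the dimer partners of 0.57, while under BSGL each median lies within 0.1 of 0. The lists were chosen with earlier results of these data known.

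The genes nearest in pattern were found by the root mean square difference over the 9 libraries. Each gene was set to its own control mean on the log2(FPKM + 1) scale, so likeness covers the size of the difference on that scale. It need not hold for ratios in low genes such as FOS and FOSB, whose differences the added 1 FPKM shrinks. FOSB averaged 1.61 FPKM under RSGL and 0.426 in control, and CYSTM1, matched to it below, 72.45 and 39.02. RND3, at 44.9 FPKM under RSGL, 12.6 under BSGL and 11.2 in control, and ITGA3, an integrin chain, at 457, 133 and 116.5, were nearest to JUN (root mean square 0.0568 and 0.0758). CD68, at 119 FPKM under RSGL, 45.4 under BSGL and 40.2 in control, was nearest to FOSL1 (0.0548). For FOSB they were CYSTM1 and ATF4, for FOS RASGEF1A and SEL1L3, for JUND PDP2 and SLC29A2, for JUNB ATN1 and TOB1, and for FOSL2 PAPSS2 and CLASP1, with values from 0.0198 to 0.106. These likenesses rest mostly on the step between RSGL and the other 6 libraries, which many genes share.

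On GRCh38, as the deposited table lists them, JUN (gene ID 3725) lies on chromosome 1 at 58780791 to 58784113, FOSL2 (2355) on chromosome 2 at 28392759 to 28417312 and FOSL1 (8061) on chromosome 11 at 65892136 to 65900526. FOS (2353) lies on chromosome 14 at 75278778 to 75282234. JUNB (3726), JUND (3727) and FOSB (2354) all lie on chromosome 19, at 12791496 to 12793311, 18279694 to 18281656 and 45467995 to 45475179.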

How the data were processed

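RNA had been extracted with TRIzol and made into libraries with a NEBNext Ultra kit, per the labels' protocols. The submitters' processing notes name DESeq2 1.16.1, HISAT2 2.0.5 and featureCounts 1.5.0-p3, with no roles. The deposited values are FPKM per gene as computed by the authors, per the file headers. The aligner settings, strand setting and filters are not given in the sources used here. Control columns carry a number and no compound, and were taken as control because the other columns name theirs. FPKM times gene length gave whole multiples of 1 step within 0.01 for 100% of values under 300 fragments, from which fragments were recovered.

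Values were analysed as log2(FPKM + 1) with limma 3.58.1 (R 4.3.3, statmod 1.5.0), 1 term per group over all 9 libraries, intensity trend, robust empirical Bayes and Benjamini-Hochberg adjustment over 12775 genes. The method was also run on simulated data in which few genes changed, each with more expected fragments than FOS or FOSB had in control. That run does not cover genes as low as these, or a comparison with as many calls as RSGL against control. Errors are SE of the model or SD over 3 libraries. COP1 was matched by gene ID. Other settings changed the added constant, filter, scaling, model and libraries. The replicate numbers did not pair the libraries. The members and gene lists were chosen with earlier results of these data known. Genes in lists were named where called with a log2 change of at least 1, at most 6 a list, with up to 4 of the highest that were not called; some genes that this rule names are not reported here. Others are examples chosen after their values were seen.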

Additional observations from a re-analysis of the deposited data

How the results depend on the processing

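The direction and call of JUN, FOSL1, JUND, FOS and FOSB for RSGL against control and against BSGL were kept in each alternative that could test them, and so was that of JUNB for RSGL against control. With a mean of at least 5 FPKM required, FOS and FOSB were not tested. FOSL2 was called in RSGL against control at a common sum (-0.12) and by limma-voom (-0.087), and its difference from BSGL turned to 0.0042 without RSGL replicate 3, the range with 1 library left out being -0.040 to 0.0042. JUNB under BSGL turned to 0.025 without BSGL replicate 1, the range being -0.13 to 0.025. Leaving out 1 library, JUNB ranged from -0.36 to -0.21 in RSGL against BSGL, where 2 of 6 such fits lost the call.

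Counts over all genes for BSGL against control moved from 11 to 0 with no filter, a common sum, no trend and robust options, only the compared groups or the replicate block, to 17 with a mean of at least 5 FPKM, to 31 with limma-voom, and to 0 to 2 with 1 library left out. With a mean of at least 5 FPKM the dimer partners called numbered 3 in both RSGL comparisons, and the ubiquitin ligases 3 for RSGL against control, where a common sum gave 2 and leaving out 1 library 2 to 5. AP-1 targets called for BSGL against control numbered 0 with no filter, a common sum, no trend and robust options, only the compared groups, the replicate block or 1 library left out, and 2 with limma-voom. Fewer genes tested account for the lower counts under the higher filter, and for the rest the cause was not tested.

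Libraries of the same number correlated at -0.21 to 0.12 in their deviations from group means and 1 of 9 libraries was closest to its own number, so the numbers do not show pairs. With the replicate block the members called were 6 for RSGL against control, 6 for RSGL against BSGL and 0 for BSGL against control. FOS and FOSB rest on 25 to 117 fragments per library, which limits their precision.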
